A study of Arabidopsis thaliana with 12 samples.

Results

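Seedlings that germinate in the dark elongate and stay pale, a state called etiolation, and light switches them to green growth. The bZIP transcription factors are a plant family that bind DNA at short elements with an ACGT core, and bZIP16 belongs to the G group of that family. Light acts partly through red-light photoreceptors, the phytochromes, and germination itself is promoted by red light. Transcripts stored from seed maturation, such as those of late embryogenesis abundant (LEA) proteins, which protect drying cells, and of oil-body proteins, are lost as a seedling establishes.

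The question here was for which transcripts the response to red light differed between the mutant atbzip16 and its wild type, Landsberg erecta (Ler). Messenger RNA was measured by oligonucleotide array in shoots (labelled as aerial parts) of Arabidopsis thaliana seedlings grown for 4 days, with 3 arrays per group and 12 in all. The groups were atbzip16 in red light with long days (0.5 µmol per square metre and second), atbzip16 in the dark, Ler in red light, and Ler in the dark. Both genotypes are labelled as Ler plants and all were plated on half-strength MS agar. The labels name the mutant only as atbzip16. Its allele, and whether it is 1 line, are not given in the sources used here. All 12 arrays and all 22746 of 22810 probe sets that are not controls were used. The light response of a genotype is the log2 ratio of red light over dark, and the quantity reported is the response of atbzip16 minus that of Ler.

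Median signal per array ran from 148.3 to 186.1 and the highest signal from 34477 to 51801.3, and the number of arrays limits the precision. LHCB4.2, an antenna protein of photosystem II, was higher in red light on every array of both genotypes, and its light response did not pass for a difference (0.02 ± 0.21, limma adjusted p = 0.991). PAP85, a seed storage protein, was lower in red light on every array of both genotypes. Both patterns run with the light conditions in the titles. The 2 measured root markers, the root-hair expansins EXPA7 and EXPA18, summed to between 50.5 and 246.2 signal units per array, against 24393 to 112013 for 7 light-harvesting and photosystem genes. No probe set carries the name of bZIP16 or of another G-group bZIP factor, so the mutated gene itself could not be followed and was not analysed here.

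The light response was lower in atbzip16 for a group dominated by transcripts that fell in red light in both genotypes, and higher for very few. Limma called 50 of 22746 probe sets (0.22%) at an adjusted p under 0.05, of which 47 (0.207%) had the lower response in atbzip16 and 3 (0.0132%) the higher one. The 47 had a median difference of -1.70 on the log2 scale, beside 0.04 for all probe sets, and 45.5% of all probe sets lay below 0. Among the 32 with 1 named gene were 6 LEA genes, an oleosin and the seed vacuolar processing enzyme BETA-VPE. The smallest adjusted p was 0.000468, and 1778 probe sets had an unadjusted p under 0.05.

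These calls rest on the model with replicate number as a block, which is how the comparison was defined. Without the block limma called 0 (932 probe sets at an unadjusted p under 0.05, smallest adjusted p 0.224), with every log2 difference unchanged. It also called 0 when the error was not allowed to vary with signal (1560 at an unadjusted p under 0.05, smallest adjusted p 0.192). Leaving out 1 dark atbzip16 array gave 35, 23 and 15 calls for replicates 1, 2 and 3. In the same order, 1 dark Ler array gave 71, 24 and 21, and 1 red-light atbzip16 array 48, 42 and 44. Leaving out 1 red-light Ler array gave 80 calls for replicate 1, 30 for replicate 2 and 26 for replicate 3. It was 190 without the 4 arrays of replicate 1, 0 without those of replicate 2 and 10 without those of replicate 3. All 50 kept their direction in each of these fits, which selection on the same arrays nearly gives. Of the 50, 15, all with the lower response in atbzip16, stayed called without any single array.

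**Figure D1:**
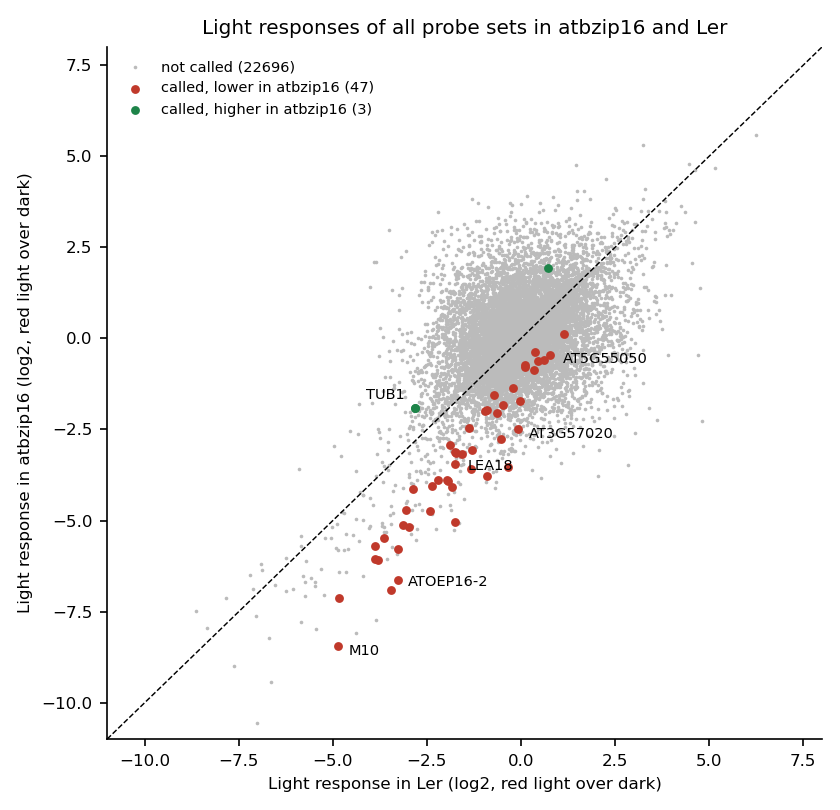
Light response (log2, red light over dark) of all 22746 probe sets in Ler on the horizontal axis and in atbzip16 on the vertical axis, with equal responses on the dashed line. The 47 red points with the lower response in atbzip16 lie mostly at the lower left, with a median response of -3.45 in atbzip16 and -1.74 in Ler, and the 3 green points lie above the line.

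The smallest p belonged to AT5G07330, for which no role is given here. Its signals, in the order of replicates 1 to 3, were 369.5, 180.1 and 234.5 in red-light atbzip16 and 4554.8, 2544.0 and 2358.5 in dark atbzip16. In Ler they were 830.9, 517.4 and 550.2 in red light and 2870.4, 1260.4 and 1044.3 in the dark. The mutant was below every Ler array in red light, while in the dark the genotypes overlapped because replicate 1 was the highest in both. The light response was -3.59 in atbzip16 and -1.33 in Ler, a difference of -2.26 ± 0.20 (SE, 3 arrays in each group, limma adjusted p = 0.000468). This SE counts only the spread left after the replicate block. Within the groups the log2 standard deviation between arrays ran from 0.37 to 0.78.

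LEA proteins gave 6 of the called genes. LEA18 had 1540.5, 601.6 and 579.8 signal units in red-light atbzip16 and 14712.2, 6967.4 and 6911.1 in dark atbzip16. Its signals in Ler were 2817.5, 1130.4 and 753.9 in red light and 8811.1, 3402.8 and 3039.8 in the dark. Within each replicate number the mutant was above Ler in the dark and below Ler in red light, although the ranges of the groups overlap in both conditions. The difference of light responses was -1.71 ± 0.18 (limma adjusted p = 0.000661), with responses of -3.45 in atbzip16 and -1.75 in Ler.

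AT5G44310, a second LEA gene, separated the genotypes in both conditions. It had 52.6, 41.4 and 22.9 signal units in red-light atbzip16 and 2681.9, 1830.5 and 1722.2 in dark atbzip16. Ler had 89.0, 83.2 and 53.8 in red light and 1048.4, 630.0 and 554.0 in the dark. All mutant arrays lay below all Ler arrays in red light and above them in the dark. The red-light margin was small and at low signal, with 52.6 in atbzip16 beside 53.8 in Ler. The difference of light responses was -2.51 ± 0.27 (limma adjusted p = 0.000747), and -1.87 when 64 was added to every signal before the logarithm. AT3G17520 (-2.21 ± 0.27), AtLEA4-1 (-1.41 ± 0.20) and AT2G23110 (-1.66 ± 0.29) were the others in this family beside M10. The call of AT2G23110 held in 2 of the 12 fits without 1 array, with differences between -1.94 and -1.47, and those of AT3G17520, AtLEA4-1, LEA18 and AT5G44310 held in all 12.

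M10 had the most negative difference of all called probe sets, at very low signal in red light. It read 14.9, 13.2 and 7.8 in red-light atbzip16 and 5014.3, 3687.6 and 3600.6 in dark atbzip16. In Ler it read 66.0, 111.3 and 12.1 in red light and 1888.9, 1320.9 and 886.9 in the dark. Only the dark groups were apart, and Ler replicate 3 in red light fell within the range of the mutant. The difference was -3.59 ± 0.58 (limma adjusted p = 0.0181), and -2.25 when 64 was added to every signal before the logarithm, which pulls low values together. The M10 call ended when replicate 2 of red-light atbzip16 (-3.49), replicate 1 (-3.68) or 3 (-3.17) of dark atbzip16, or replicate 2 (-3.37) or 3 (-3.75) of dark Ler was left out. It held without replicate 2 of red-light Ler, where the difference was -2.94, and without replicate 3 of it, where it was -4.32. Taken as a fold rather than as log2, each of these red-light Ler arrays moves the difference by over 1.5 times. M17, a gene of the same family, had a difference of 1.16 ± 1.18 that did not pass (limma adjusted p = 0.874).

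Of the called genes outside the LEA family, ATOEP16-2 had the largest difference that held in all 12 fits without 1 array. ATOEP16-2, a protein of the outer plastid envelope, had 10.5, 28.8 and 29.1 signal units in red-light atbzip16 and 2434.5, 1887.2 and 1826.0 in dark atbzip16. It had 57.2, 80.2 and 63.7 in red-light Ler and 749.7, 665.6 and 535.5 in dark Ler. The groups did not overlap in either condition, and replicate 1 of red-light atbzip16 was the lowest array. The difference was -3.34 ± 0.45 (limma adjusted p = 0.00544), and -2.16 with 64 added to each signal.

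BETA-VPE, a protease that processes storage proteins in the seed vacuole, differed between genotypes mainly in the dark. Its signals were 871.6, 399.2 and 390.7 in red-light atbzip16 and 5500.1, 3953.5 and 3624.9 in dark atbzip16. Ler had 916.6, 566.8 and 659.1 in red light and 2697.1, 1567.0 and 1210.6 in the dark. All 3 dark mutant arrays were above all dark Ler arrays, and the red-light groups overlapped. The difference of light responses was -1.76 ± 0.20 (limma adjusted p = 0.000773).

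AT2G25890, an oleosin of the oil body, had a difference of -2.25 ± 0.30 (limma adjusted p = 0.00473), and AT3G54940, a papain-type cysteine protease, one of -2.20 ± 0.30 (limma adjusted p = 0.00544). Oleosins coat the oil droplets of seeds. AT5G01300, of the phosphatidylethanolamine-binding protein family, had -2.33 ± 0.23 (limma adjusted p = 0.000661), and its mutant arrays were below Ler in red light and above Ler in the dark without overlap. All of these calls, and those of AT5G42290 (-2.87 ± 0.41), ATOEP16-2 and BETA-VPE, held in each of the 12 fits without 1 array.

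Further genes with the lower response in atbzip16 had adjusted p values between 0.0124 and 0.0474 and lost the call in at least 1 of those fits. They include AT1G04560, of the AWPM-19-like membrane protein family (-1.84), AT2G38905, of a family of low-temperature and salt responsive proteins (-1.96), and AT2G15010, a thionin-like gene (-1.81). AT5G01670, an aldo-keto reductase (-1.26), AT3G58450 (-1.97), AT3G19920 (-1.69) and AT4G31830 (-3.43, and -1.87 with 64 added to each signal) belong here too, with the glutaredoxin GRXC1 (-1.07), an enzyme that reduces disulphides. AT4G31830 read 7.7, 13.5 and 11.7 in red-light atbzip16 and 22.4, 46.5 and 70.5 in red-light Ler. In AT2G15010 the red-light arrays lay between 46.3 and 81.8 in atbzip16 and between 58.4 and 99.6 in Ler, and overlapped. Its dark arrays lay between 3277.7 and 3614.9 in atbzip16 and between 908.3 and 1105.4 in Ler, without overlap.

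**Figure D2:**
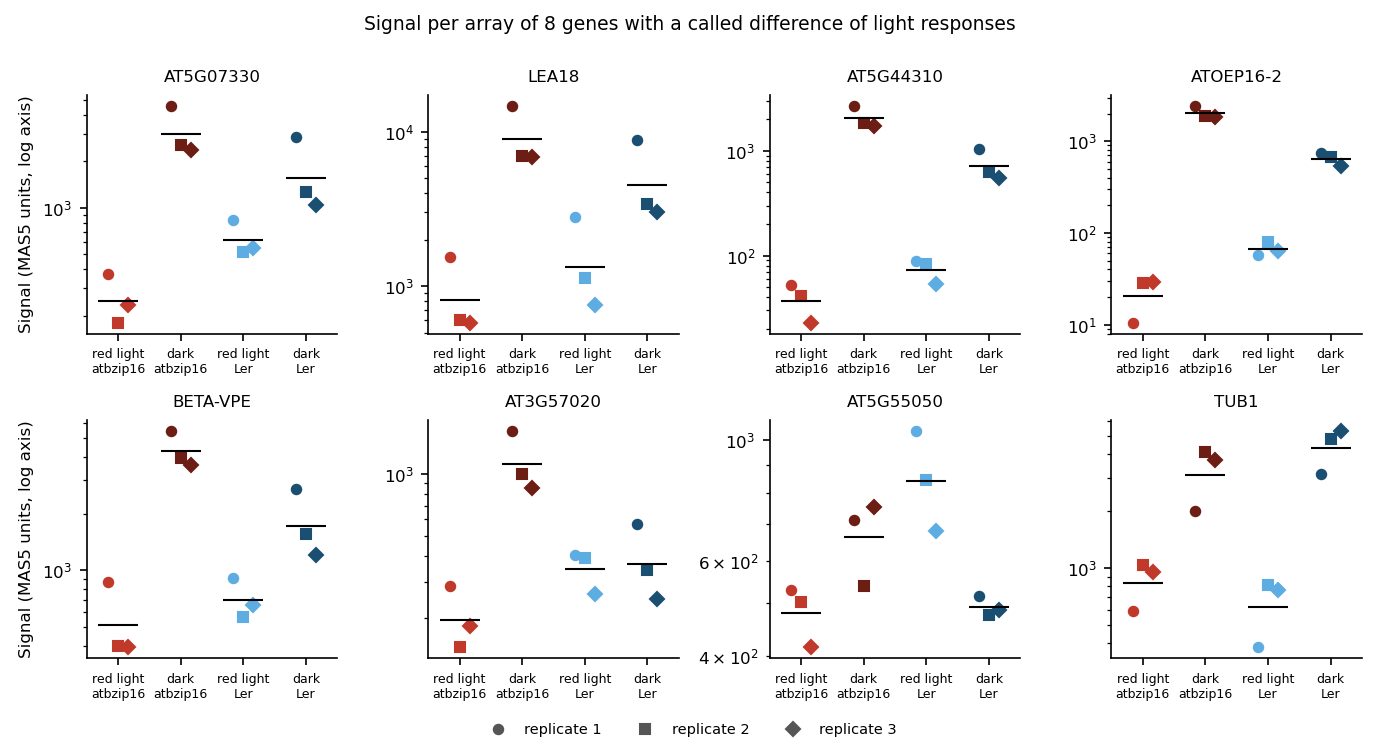
MAS5 signal on a log axis of 8 genes with a called difference, with 1 point per array, the shape giving the replicate number and the black line the geometric mean of the 3 arrays. Replicate 1 stands highest in all 4 groups of LEA18, and TUB1 shows it lowest in all 4.

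Most of the 47 fell in red light in both genotypes, by more in atbzip16. The fall was called in both genotypes for 33, beside 8.81% of all probe sets called as falling in atbzip16 and 8.05% in Ler. For 9 it was called in atbzip16 only, and for 4 the response was called as a fall in atbzip16 and as a rise in Ler, where 7.37% of all probe sets rose. The last, AT4G17840, rose in Ler only (1.15, limma adjusted p = 2.3e-05, against 0.13 in atbzip16). The percentages are for each genotype by itself, and the share of all probe sets with a given pair of calls was not counted. These light responses share arrays with the difference that chose the genes, so they describe it and lend it no weight.

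AT3G57020, of a family related to strictosidine synthase, has the smallest p of the 9 with a called fall in the mutant only. It had 284.8, 144.1 and 183.9 signal units in red-light atbzip16 and 1613.7, 990.6 and 854.3 in dark atbzip16. It had 402.6, 390.2 and 260.5 in red-light Ler and 569.9, 340.8 and 247.3 in dark Ler. The Ler groups overlapped each other, whereas each red-light mutant array was below each dark one. The response was -2.50 in atbzip16 and -0.08 in Ler (limma adjusted p = 0.848 for Ler), and the difference was -2.42 ± 0.26 (limma adjusted p = 0.000703). AT1G30700, a berberine-bridge-type oxidoreductase, had -0.87 in atbzip16 and 0.36 in Ler, and probe set 255521_at, with no gene in the annotation used, had -1.73 in atbzip16 and -0.03 in Ler.

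Opposite responses were called for AT5G55050, AT1G75490, AT4G38810 and AT1G06700. AT5G55050, a GDSL-type esterase or lipase, had 529.1, 503.8 and 414.8 signal units in red-light atbzip16 and 712.0, 539.5 and 754.7 in dark atbzip16. Ler had 1041.8, 843.5 and 679.5 in red light and 516.3, 476.2 and 485.8 in the dark. Red light was the lower condition in the mutant and the higher one in Ler, without overlap in either. The response was -0.46 in atbzip16 (limma adjusted p = 0.0426) and 0.77 in Ler (limma adjusted p = 0.00194), and the difference was -1.24 ± 0.21 (limma adjusted p = 0.0237). The call for AT5G55050 held in 5 of 12 fits without 1 array, with differences between -1.39 and -1.05. It ended when an atbzip16 array was left out that was replicate 1 (-1.23) or 3 (-1.16) in red light, or 1 (-1.27) or 3 (-1.05) in the dark. In Ler it ended when that array was replicate 2 in red light (-1.19), or 2 (-1.25) or 3 (-1.28) in the dark.

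AT1G75490, a transcription factor of the DREB2 group, had a response of -0.58 in atbzip16 and 0.61 in Ler, a difference of -1.19 ± 0.20. AT4G38810, an EF-hand calcium-binding protein, had -0.38 in atbzip16 and 0.38 in Ler. AT1G06700, a protein kinase gene, read 53.5, 57.0 and 37.0 in red-light atbzip16 and 75.1, 76.1 and 70.3 in dark atbzip16. In Ler it read 4423.6, 4606.0 and 4400.0 in red light and 3196.9, 3367.5 and 3299.0 in the dark. The mutant was far below Ler in both conditions, and its response of -0.61 is a ratio between signals under 100. The calls of AT4G38810 and AT1G06700 held in 2 of 12 fits without 1 array, and that of AT1G75490 in 7.

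Seen as genotype differences, the lower response came from both ends, with the dark difference the larger for 33 of the 47. Of the 47, 45 were below Ler in red light and 45 above Ler in the dark on the group means, and 43 were both. The median difference between atbzip16 and Ler was -0.68 in red light, beside 0.03 for all probe sets. In the dark it was 1.18, beside -0.02 for all probe sets. Limma called 15 of the 47 as lower in atbzip16 in red light, where 0.189% of all probe sets were, and 36 as higher in the dark, where 0.769% were. The mutant lay below Ler without overlap in red light for 16 (4.26% of all probe sets), and above Ler without overlap in the dark for 27 (5.75%). These genotype differences make up the difference that chose the genes, on the same arrays. Their signs and counts therefore describe it and lend it no weight.

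Both ends were called for 9, namely ATOEP16-2, AT2G25890, AT3G17520, AT5G07330, AT5G01300, AT5G44310, LEA18 and probe sets 247437_at and 247095_at. For ATOEP16-2 the genotype difference was -1.68 in red light and 1.66 in the dark, and for AT5G07330 it was -1.31 in red light and 0.95 in the dark. The dark end alone was called for 27, among them BETA-VPE, AT2G15010, GRXC1 and AT5G01670. BETA-VPE differed by -0.44 in red light and by 1.32 in the dark, AT2G15010 by -0.05 in red light and by 1.76 in the dark, and GRXC1 by -0.04 in red light and by 1.03 in the dark. Red light alone was called for AT5G55050, AT3G43520 and probe sets 262347_at, 266462_at and 259426_at. Neither end was called for M10, AT4G31830, AT4G38810 and probe sets 255048_at and 245627_at, and AT1G06700 was called below Ler at both. The shares of all probe sets with these combinations of calls were not counted. Of the 47, 16 had a group with a mean signal under 100, where a log2 ratio is least certain.

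**Figure D3:**
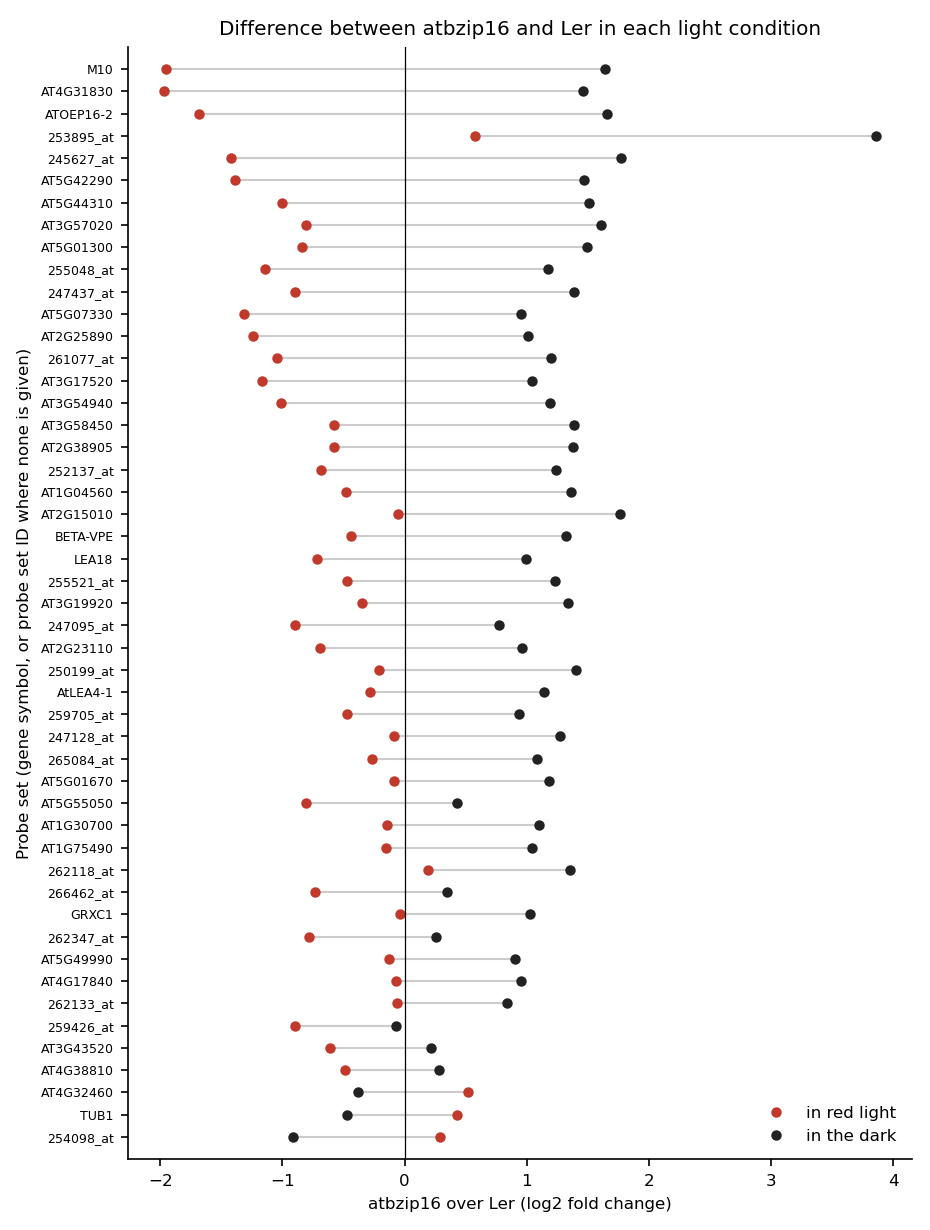
Log2 difference between atbzip16 and Ler in red light (red) and in the dark (black) for 49 of the 50 called probe sets, ordered by the size of the difference of light responses. AT1G06700, at -6.53 in red light and -5.48 in the dark, is left out to keep the scale, and most pairs of points lie on opposite sides of 0.

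The 3 called probe sets with the higher response in atbzip16 were TUB1, AT4G32460 and 254098_at. TUB1, a beta-tubulin of the microtubules, had 588.3, 1039.8 and 953.1 signal units in red-light atbzip16 and 2000.2, 4083.7 and 3707.2 in dark atbzip16. Ler had 379.4, 816.6 and 767.0 in red light and 3149.7, 4823.9 and 5322.0 in the dark. It fell in red light in both genotypes, by less in atbzip16, with responses of -1.90 in atbzip16 and -2.80 in Ler. The difference was 0.90 ± 0.15 (limma adjusted p = 0.0181) and the groups of the 2 genotypes overlapped in each condition. The TUB1 call held in 7 of 12 fits without 1 array (0.82 to 1.01). It ended when replicate 2 of red-light atbzip16 (0.90), 1 (0.86) or 3 (0.90) of dark atbzip16, or 3 of Ler in red light (0.93) or in the dark (0.88) was left out.

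AT4G32460, a cell wall protein of the DUF642 family, had 1118.6, 1452.9 and 1299.3 signal units in red-light atbzip16 and 3438.0, 5784.2 and 5718.9 in dark atbzip16. Ler had 646.9, 993.9 and 1110.1 in red light and 4700.6, 6794.1 and 7883.7 in the dark. The mutant was above every Ler array in red light. The difference was 0.90 ± 0.16 (limma adjusted p = 0.0277), a call that held in 4 of 12 fits without 1 array (0.77 to 1.04). Probe set 254098_at, with no gene in the annotation used, rose in both genotypes, with responses of 1.93 in atbzip16 and 0.73 in Ler, a difference of 1.20 ± 0.20 (limma adjusted p = 0.0204).

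Gene lists were described by counts, without a test of the list. Of 35 measured LEA genes 6 were called as lower, where 0.207% of all probe sets were, and 0 as higher. Of the 35, 24 lay below 0, where 45.5% of all probe sets did, and the median was -0.54, beside 0.04 for all probe sets. The fall in red light was called in both genotypes for 17 of the 35. Over all probe sets 8.81% fell in atbzip16 and 8.05% in Ler, and the share that fell in both was not counted. The differences of light responses of those 17 ran from -3.59 to 1.16, with 15 below 0. In red light 23 of the 35 were below Ler (3 called, where 0.189% of all probe sets were), and in the dark 22 were above Ler (7 called, where 0.769% were). A mean signal under 50 was found for 7 of the 35. LEA4-5 (-1.92 ± 0.37, limma adjusted p = 0.0547) was the list member nearest outside the threshold.

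Of 9 storage and oil-body genes, 1 was called as lower, where 0.207% of all probe sets were, the oleosin AT2G25890, and 8 lay below 0 with a median of -0.45. PAP85 had -0.81 ± 0.29 (limma adjusted p = 0.484), from 254.7, 197.1 and 312.3 signal units in red-light atbzip16, 34501.1, 27131.9 and 26608.3 in dark atbzip16, 177.4, 209.5 and 234.5 in red-light Ler and 21600.9, 10988.5 and 10913.4 in dark Ler. In red light 6 of the 9 were above Ler (0 called higher, 1 called lower, where 0.189% of all probe sets were), and in the dark 8 were above Ler (2 called, where 0.769% were). The oleosin OLEO3 had 0.32 ± 0.24 and the cupin AT2G28490 -0.45 ± 0.80, and neither passed. Of the seed regulators, 2 were measured, the bZIP factor EEL (-0.60 ± 0.31) and the MADS-box factor AGL67 (-1.53 ± 1.13), and neither passed.

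Light-related lists showed no called difference. None of 7 light-harvesting and photosystem genes was called (median 0.06), with LHCB4.1 at -0.17 ± 0.19 and PSBY, a small photosystem II subunit, at 0.09 ± 0.15. None of 9 chlorophyll synthesis genes was called, and all 9 lay above 0 with a median of 0.34. The largest of them were HEMB1 (0.47 ± 0.17) and PORB, a protochlorophyllide reductase (0.43 ± 0.15, limma adjusted p = 0.457). None of 69 plastid-encoded genes was called (median 0.11). FHL, a partner of phytochrome A import (-0.75 ± 0.32), and HYH, a bZIP factor of light signalling (-1.94 ± 1.06), did not pass.

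Growth and hormone lists were also without a call except for 1 of 7 tubulins, TUB1. None of 29 expansin and xyloglucan endotransglucosylase genes, which loosen cell walls, was called (median -0.06), and the expansin EXPA4 came nearest (-0.77 ± 0.19, limma adjusted p = 0.191). None of 14 auxin-responsive genes was called (median 0.08). The same held for 5 gibberellin genes (median 0.04, with the receptor GID1B at -0.88 ± 0.34), and 6 genes induced by abscisic acid or cold (median -0.12, with the dehydrin LTI30 at -0.98 ± 0.43). HIS1-3, a drought-induced linker histone on the list of 7 histones and cyclins, had -1.0 ± 0.21 (limma adjusted p = 0.0725). No call fell among 24 beta-glucosidases and lectins (median -0.14), 17 defensin-like proteins (median 0.22), 13 glutathione transferases (median 0.03) or 7 peroxidases (median 0.16). The 3 measured genes of seed oil breakdown lay between -0.25 and -0.09, and the 2 heat shock genes between -1.02 and 0.05, with none called. A p that misses the threshold does not show that the responses were equal.

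**Figure D4:**
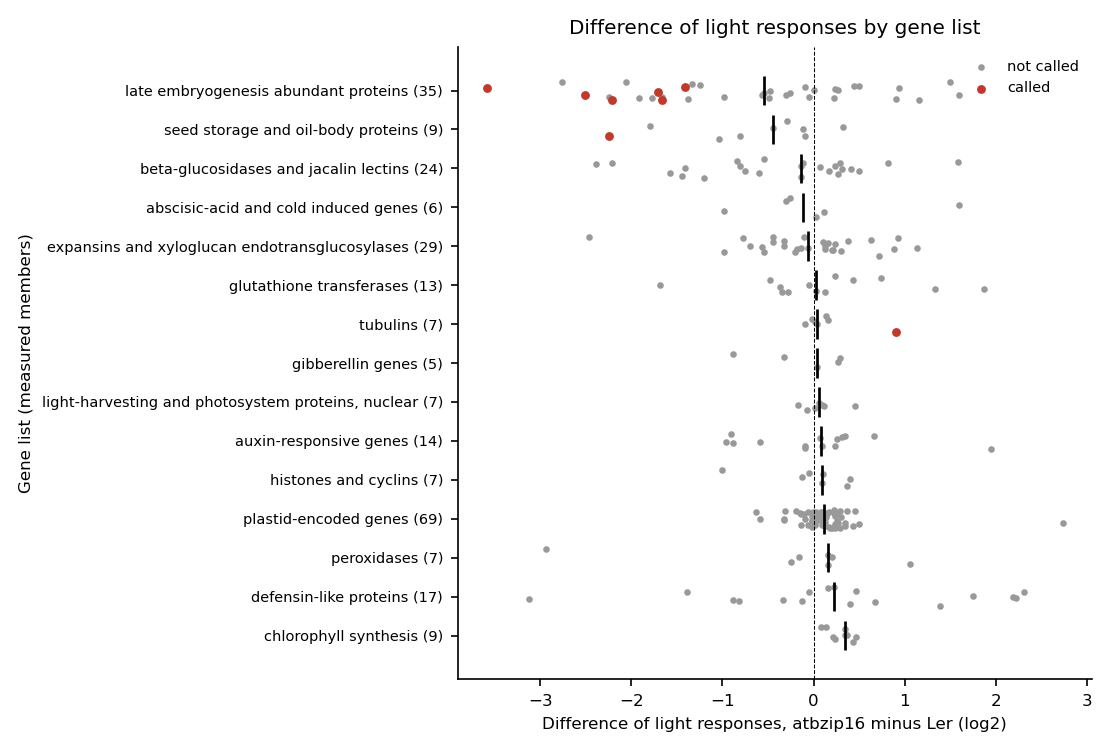
Difference of light responses, atbzip16 minus Ler (log2), for the measured genes of the 15 lists with 4 or more members, with called genes in red and the list median as a black bar. Called genes appear in the LEA list (6, all below 0), the storage and oil-body list (1, below 0) and the tubulins (1, above 0).

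Just outside the threshold stood LEA4-5, then AT5G60760 (-0.86), AT1G62510, of the lipid-transfer type (-1.06), and AT1G02700 (-1.83), each of these 3 with a limma adjusted p of 0.0621. Just inside it, AT3G58450 had an adjusted p of 0.0474 and AT5G49990, a nucleobase transporter family gene (-1.03 ± 0.19), 0.0448.

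The seed lists were also summed per array, where bright members weigh most. The summed signal of the 35 LEA genes was 45517, 36053 and 39111 in red-light atbzip16 and 138499, 94013 and 93601 in dark atbzip16. In Ler it was 52705, 48859 and 46786 in red light and 99199, 60030 and 54402 in the dark. COR47, a dehydrin induced by cold and abscisic acid whose light response was not called as different (-0.26), made up 46.7 to 60.1% of this sum in red-light atbzip16 and 49.1 to 56.7% in red-light Ler.

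Without the 4 LEA genes that are also on the abscisic-acid and cold list, a choice made after seeing the data, the sum was 17154, 17505 and 18901 in red-light atbzip16 and 116008, 75011 and 73164 in dark atbzip16. In Ler it was 20588, 20726 and 18468 in red light and 69443, 40800 and 35870 in the dark. The red-light groups then overlapped, with replicate 3 higher in atbzip16, and all dark atbzip16 arrays were above all dark Ler arrays. The summed signal of the 9 storage and oil-body genes was 1151, 763 and 1167 in red-light atbzip16 and 64087, 45886 and 45016 in dark atbzip16, against 1232, 1038 and 969 in red-light Ler and 36601, 20128 and 18425 in dark Ler. For this list too the dark groups were apart and the red-light groups overlapped.

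Replicate 1 had the highest LEA sum over all 35 genes in each of the 4 groups. The 31 LEA genes and the storage list together held 0.107 to 0.118% of all signal in red-light atbzip16 and 0.116 to 0.13% in red-light Ler. In the dark they held 0.746 to 1.12% in atbzip16 and 0.351 to 0.665% in Ler. In RNA from whole shoots, fewer cells of a type and less RNA per cell cannot be told apart, and nor can ungerminated or late seedlings from retained seed transcripts. The part of seedling stage in the called differences was not tested.

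**Figure D5:**
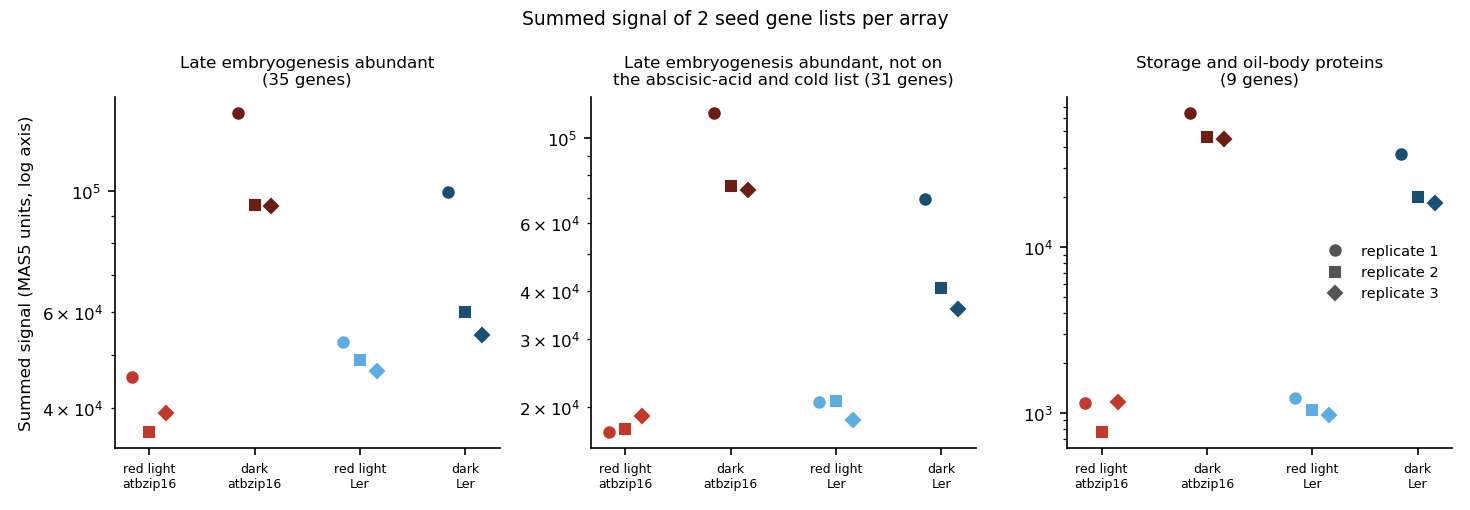
Summed MAS5 signal per array (log axis) of the 35 LEA genes, of the 31 of them not on the abscisic-acid and cold list, and of the 9 storage and oil-body genes, with the shape of a point giving the replicate number. The red-light arrays of atbzip16 and Ler are apart for the 35 genes but overlap for the 31 (17154 to 18901 in atbzip16, 18468 to 20726 in Ler) and for the storage genes, and the dark arrays are apart for the 31 and the storage genes.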

How the data were processed

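The deposited table holds 1 linear intensity, the MAS5 signal, per probe set and array. The tool's name comes from the submitters' processing notes. Version, settings and detection calls are not given in the sources used here. Each array has a mean of 499.8 once 2% is trimmed at each end. The protocol also describes polysome RNA, but samples are labelled as total RNA. Groups come from the titles, against which the description field of 6 samples gives the opposite light condition. Replicates are titled as biological, with no separate plantings named. The p-values therefore measure only the spread between these arrays that is left after the replicate block is taken out.

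Signals were taken to log2 with no pseudocount and 64 control probe sets left out. Over the 12 arrays limma 3.58.1 (R 4.3.3) fitted a mean per group with replicate number as a block, using lmFit, contrasts.fit and eBayes with a variance trend, leaving 6 residual degrees of freedom. Within a contrast, Benjamini-Hochberg adjusted p-values over the 22746 probe sets were called under 0.05. Errors after ± are standard errors from this fit, so they leave out the spread that the block takes up. The script was tested on simulated data. Deviations from group means of arrays with equal numbers correlated weakly in 18 pairs (0.017 to 0.16), against -0.108 to 0.0502 for unequal numbers. Without the dimmest 30% of probe sets the ranges were 0.158 to 0.501 and, for unequal numbers, -0.379 to 0.229, and they overlapped. Replicate 1 stood apart (0.104 to 0.16), while replicates 2 and 3 (0.017 to 0.0782) lay close to the highest unequal pairs, so their pairing by number is uncertain. Deviations cancel within each group, which ties equal and unequal pairs together, so the unequal pairs are no independent reference. Every call of this fit rests on the block, since the same fit without it gave no call.

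The platform annotation used here held 14016 of the probe sets, 13513 with 1 gene, 503 with several, and 8730 are unnamed here. Of the 13513, 13436 were found in a TAIR10.1 gene table, which updated names. Genes were named by rule: the 15 largest positive and 25 largest negative called differences with 1 gene, up to 3 members of each of 25 lists by smallest p, the 4 genes nearest outside the threshold, and up to 4 called probe sets without a gene. Probe sets and genes named outside it (AT1G06700, AT4G38810, AT4G17840, AT3G43520, AT5G49990, M17, OLEO3, AT2G28490, 254098_at and those listed by which end was called) were chosen after their values were seen. A gene with several probe sets is represented by the brightest. The members, lists and tests were chosen with earlier results of these data known. Some lists (LEA, storage, tubulin, defensin and plastid-encoded among them) were corrected or extended after the names on the array were seen. Of the 25 lists, 15 had 4 or more measured members, 6 had 1 to 3 and 4 had none. Promoter sequences were not analysed here.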

Additional observations from a re-analysis of the deposited data

Results flagged for a closer look

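Each gene below has a light response that differed between genotypes by the test of that difference (limma, adjusted p under 0.05, replicate block), and all 31 differences had the same sign in 3 of 3 replicate numbers, which selection on the same arrays nearly gives. The values are the response of atbzip16 minus that of Ler on the log2 scale. Above 0 were TUB1 and AT4G32460, both at 0.90. The LEA genes were M10 (-3.59), AT5G44310 (-2.51), AT3G17520 (-2.21), LEA18 (-1.71), AT2G23110 (-1.66) and AtLEA4-1 (-1.41). Below -2 were also AT4G31830 (-3.43), ATOEP16-2 (-3.34), AT5G42290 (-2.87), AT3G57020 (-2.42), AT5G01300 (-2.33), AT5G07330 (-2.26), AT2G25890 (-2.25) and AT3G54940 (-2.20). Between -2 and -1.5 were AT3G58450 (-1.97), AT2G38905 (-1.96), AT1G04560 (-1.84), AT2G15010 (-1.81), BETA-VPE (-1.76) and AT3G19920 (-1.69). The smallest differences were in AT5G01670 (-1.26), AT5G55050 (-1.24), AT1G30700 (-1.23), AT1G75490 (-1.19) and GRXC1 (-1.07). Probe sets without a gene in the annotation used were 247437_at (-2.29), 247095_at (-1.67), 255521_at (-1.70) and 262347_at (-1.04).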

How the results depend on the processing

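The 50 calls (3 higher, 47 lower in atbzip16) became 0 (0 and 0) with no replicate block, and 0 (0 and 0) with no variance trend (1560 probe sets at an unadjusted p under 0.05). Array weights gave 91 (8 and 83). Leaving out the dimmest 50% gave 7 higher and adding 64 to each signal gave 72 lower. Adding 64 with no replicate block, chosen after seeing the data, gave 7 (0 and 7), of which 2 were among the 50. Without 1 array the counts ran from 15 to 80 (0 to 10 higher, 15 to 70 lower), and without 1 replicate number from 0 to 190 (0 to 44 higher, 0 to 146 lower). The cause of these shifts was not tested. The dimmest 30% left out (57), median centring (56), quantile normalization (60), 16 added (56) and robust hyperparameters (52) stayed within 1.5 times. All 50 kept their sign in all 26 alternative fits, which selection on the same arrays nearly gives. Over the 31 genes and probe sets named as called, 549 of 806 values stayed past the threshold, 257 did not and 0 reversed. Of the 27 named genes, 12 stayed called without any single array. Signals under 100 in a group limit 16 of the 47.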
